A study of Gallus gallus with 205 samples.

Results

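Of 175 single cells taken from the primitive streak of Hamburger-Hamilton stage 4 chicken embryos, 46 held SOX3 mRNA at 10 CPM or more (CPM is the count of a gene divided by the total of its cell and scaled to 1000000) and are called SOX3-positive here. Another 89 held less than 1 CPM and are called SOX3-negative, and the 40 cells from 1 to under 10 CPM lay between and entered neither group. The whole series holds 205 cells: the 175 streak cells and 30 cells from the tissue around the streak. SOX3 itself chose the groups, so its level is described below and is no result.

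SOX3 is a transcription factor of the SOXB1 group. In the early vertebrate embryo it is made in the epiblast, the epithelial sheet from which all embryonic tissues come, and then in the neural plate. At the primitive streak, epiblast cells leave the sheet, change from epithelial to mesenchymal form and enter the embryo as mesoderm and endoderm. The factor T (Brachyury) marks cells of the streak, and SNAI2 (Slug) is a transcriptional repressor that drives the exit from the epithelium in the chick.

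The eggs were White Leghorn, incubated for 20 to 27 hours, and the embryos carried no mutation or treatment named in the labels. The streak was cut out, and what was left of the area pellucida, the translucent central disc of the embryo, made up the surrounding-region sample. Streak cells carry 4 kinds of title, cPS (27 cells), cPS1 (37), cPS2 (59) and cPS3 (52), called title series here; what divides them is not given in the sources used here. No label names the embryo a cell came from, so cells are not replicates and each SOX3 group counts as 1 sample. For this reason no p-value is given, and every interval covers counting error alone. The level of a gene in a group is its summed count over the summed total of the group's cells, in CPM, with an exact Poisson 95% interval.

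SOX3 reached 10 CPM in 26.3% of streak cells (exact Clopper-Pearson 95% interval 19.9% to 33.5%). The share was 33.3% in cPS, 29.7% in cPS1, 23.7% in cPS2 and 23.1% in cPS3, with intervals that overlapped throughout, and each series supplied cells of both groups. SOX3 ran from 11.6 to 149.1 CPM among the positive cells, with a median of 25.9, and 60 streak cells had no SOX3 count. The 3 cells just below the upper limit held 7.82, 8.06 and 9.78 CPM, and the 3 just above it 11.6, 12.4 and 13.6. At the lower limit, the nearest cells held 0.830, 0.857 and 0.857 CPM on one side and 1.12, 1.13 and 1.31 on the other. There was no gap at either limit, so the groups are ranges of one continuous level. HES5, a transcriptional repressor of the Notch pathway found in neural progenitors, is the second gene by which these cells were described, and it is given first among the results.

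**Figure D1:**
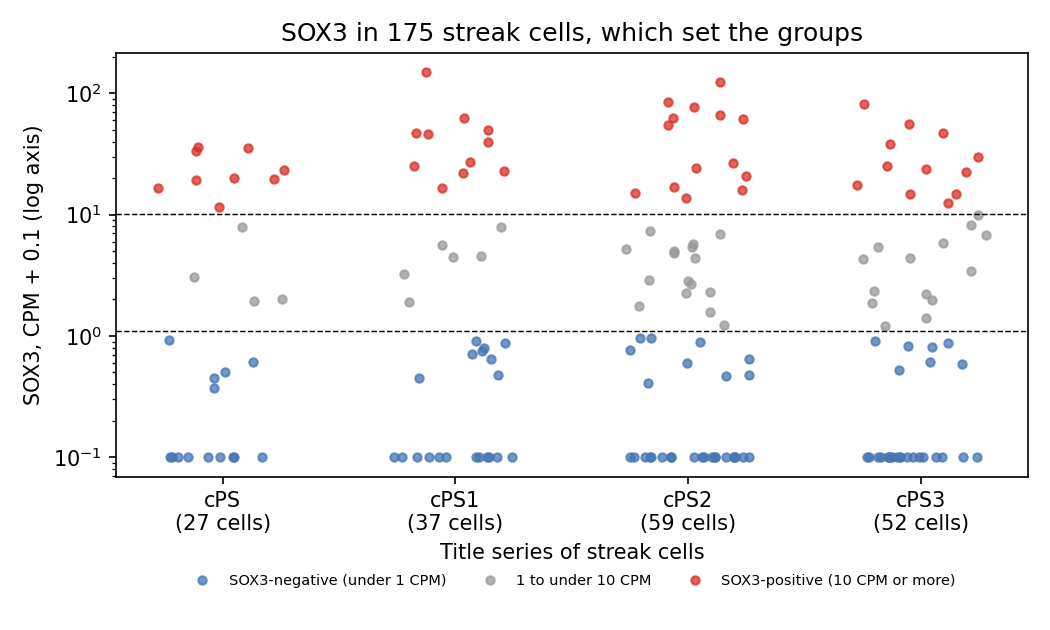
SOX3 in each of the 175 streak cells, in CPM with 0.1 added on a log axis, by title series; each point is 1 cell, colours mark the 3 SOX3 ranges and dashed lines mark 1 and 10 CPM. Every title series holds cells on both sides of the 2 limits, and the levels run through both limits with no gap.

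The total count per cell was 683365 to 3761140 in SOX3-positive cells (median 2364765) and 408481 to 4552697 in SOX3-negative cells (median 2533987). Genes at 10 CPM or more, the limit used here to call a gene detected in a cell, had a median of 4917 per positive and 4694 per negative cell. That gap was widest in cPS1, where the medians were 5435 and 4608, while in cPS they were 4373 and 4666 and in cPS3 4805.5 and 4837.5, fewer in positive cells. HINTW, a gene of the female W chromosome, was detected in 26 of 46 positive and 44 of 89 negative cells, so both groups mixed cells of high and low HINTW. Doublets were not called.

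HES5 ran from 0 to 1357 CPM in SOX3-positive cells with a median of 40.1, and from 0 to 773 CPM in SOX3-negative cells with a median of 0. It was detected in 31 of 46 positive and 18 of 89 negative cells, and its pooled level was 193 CPM (190.4 to 196) against 33.9 (33.1 to 34.6). The log2 ratio, computed with 1 CPM added to each level, was 2.48. By title series the ratio was 5.68 in cPS, −0.29 in cPS1, 2.67 in cPS2 and 2.87 in cPS3. In cPS1 alone of the 4 series the pooled HES5 level was not higher. The share of cells with HES5 was higher there too, at 7 of 11 positive against 4 of 20 negative cells. LOC419390, an identifier with no gene name whose span overlaps that of HES5 in the GRCg7b gene table, was picked out after its values were seen. It was detected in 24 of 46 positive and 5 of 89 negative cells. It stood at 187 CPM (185 to 189.8) against 5.32 (5.03 to 5.63), and its log2 ratio was 3.97 or more in each series. In the negative group 1 cell held 57.2% of its count, and the pooled log2 ratio moved from 4.90 to 5.69 without the highest cell of each group. Reads of these overlapping genes may be divided between them by the counting.

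Across the 20580 genes other than SOX3, 0.753% were higher and 0.802% lower in SOX3-positive cells by a rule of size. The rule asked for a 2-fold or greater ratio that held without the highest cell of each group, at least 20 CPM and detection in at least 25% of cells in the higher group, and the same direction in all 4 title series. By a second rule, a share of cells with the gene that differed by at least 20 percentage points with the same direction in all 4 series, 298 genes (1.45%) were higher and 56 (0.272%) lower. The excess of higher genes by the second rule stands beside a number of detected genes that was larger in positive cells over all series and in cPS1 and cPS2, and smaller in cPS and cPS3. The part of that number in the result was not tested. Both rules together held for 90 genes higher and 27 lower. Asking for 3 series instead of 4 raised the counts by size to 232 genes (1.13%) higher and 211 (1.03%) lower, an alternative chosen after seeing the data. Leaving out 1 series asks for 3 series by construction, and by size it gave 1.22% lower without cPS1, 1.15% higher and 1.48% lower without cPS2, and 1.15% higher without cPS3. By the detection rule it gave 2.25% higher without cPS, 0.792% lower without cPS1 and 0.593% lower without cPS2. For every gene named here the values of the 2 groups of cells overlapped.

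A few epiblast genes were higher in SOX3-positive cells. Of 12 measured genes on a list of epiblast and pluripotency genes, NANOG passed the size rule, NANOG and TFAP2C passed the detection rule, and none passed either rule as lower. A list gene counted as measured at 5 CPM or more in either group. The median log2 ratio of the list was 0.24, against 0.01 over all 9586 measured genes, of which 8.2% were 2-fold or more higher and 7.28% 2-fold or more lower. All genes past either rule were measured genes, among them the 298 higher and 56 lower by detection. Shares passing were therefore larger over the 9586 measured genes than the percentages given over 20580. Past either rule, 363 of the 9586 measured genes were higher and 194 lower, and the size rule alone passed fewer in each direction. Percentages by size were computed over 20580 genes only. Beside them, list counts by size look more enriched than they are. List counts here and below are to be read beside the 363 and 194 of 9586, and no enrichment of a list was tested. NANOG, a pluripotency factor, ran from 0 to 640 CPM in positive cells (median 72.7) and from 0 to 644 in negative cells (median 3.91). It was detected in 32 of 46 against 38 of 89 cells, pooled to 118.7 against 52.4 CPM (log2 1.16), and was higher by 0.86 or more on the log2 scale in each of the 4 series. TFAP2C, a transcription factor of early ectoderm and germ cells, was detected in 15 of 46 against 4 of 89 cells, at 15.5 against 1.34 CPM. SALL4, a zinc-finger factor of pluripotent cells, was found in every cell of both groups at 1041 against 780 CPM (log2 0.42). POUV, the chicken POU factor of pluripotent cells, stood at 11.9 against 12.6 CPM, and KLF5 at 26.7 against 49.4.

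The ENS-1 family was higher in every title series. ENS-1, ENS-3 and ERNI are related sequences that are active in the early chick epiblast. They were picked out after their values were seen, and since they are near-identical copies the counting may have divided reads among them. ENS-1 ran from 12.8 to 3146 CPM in positive cells (median 352) and from 14.96 to 1130.2 in negative cells (median 122.6), so every cell of both groups held it. Pooled levels were 566 against 194 CPM for ENS-1, 697 against 226 for ENS-3 and 540.5 against 181 for ERNI. The log2 ratios were 1.54, 1.62 and 1.57, and those of single title series lay between 1.15 for ERNI in cPS3 and 1.75 for ENS-1 in cPS. PHC1, a Polycomb subunit that was also picked out afterwards, stood at 122.8 against 32.2 CPM and was detected in 35 of 46 against 41 of 89 cells.

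Few neural plate genes other than HES5 passed a rule. Of 12 measured members of that list, HES5 and DACH1 passed the detection rule as higher and CDH2 passed the size rule as lower, and the median log2 ratio was 0.24. Within single series that median was 0.21 in cPS, −0.14 in cPS1, −0.09 in cPS2 and −0.48 in cPS3. DACH1, a transcriptional corepressor, was detected in 24 of 46 against 24 of 89 cells, at 41.4 against 19.6 CPM, and reversed to a log2 ratio of −0.10 when positive cells were limited to 50 CPM of SOX3 or more. SOX2, the SOXB1 relative that marks the neural plate, was detected in 2 of 46 and 1 of 89 cells, at 1.81 and 0.263 CPM. OTX2, a factor of the anterior epiblast and forebrain, stood at 10.6 against 9.13 CPM. Of the list of other SOX genes only SOX11 was measured, at 28.05 against 27.2 CPM. On a list of non-neural ectoderm and border genes, TFAP2C passed the detection rule and none of 14 measured members passed the size rule, with a median log2 ratio of 0.55, which was −0.10 in cPS and −0.09 in cPS3. UPK1B, a uroplakin of that list, had 77.4% of its positive-group count in 1 cell.

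Among junction genes, CLDN1 was higher. CLDN1, a tight-junction claudin, ran from 68.3 to 8603 CPM in positive cells (median 3131) and from 4.45 to 5121 in negative cells (median 1045). Its pooled level was 3184 (3173 to 3194) against 1502 (1497 to 1507) CPM, a log2 ratio of 1.08, and it was the 1 gene of 11 measured on the list of epithelial junctions to pass the size rule. CDH1, the epithelial cadherin, stood at 1.40 against 0.845 CPM and was detected in 3 cells of each group. PARD6B, a polarity protein, stood at 7.10 against 1.49 CPM and CGN, a tight-junction plaque protein, at 1.09 against 6.94, and neither passed a rule.

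**Figure D2:**
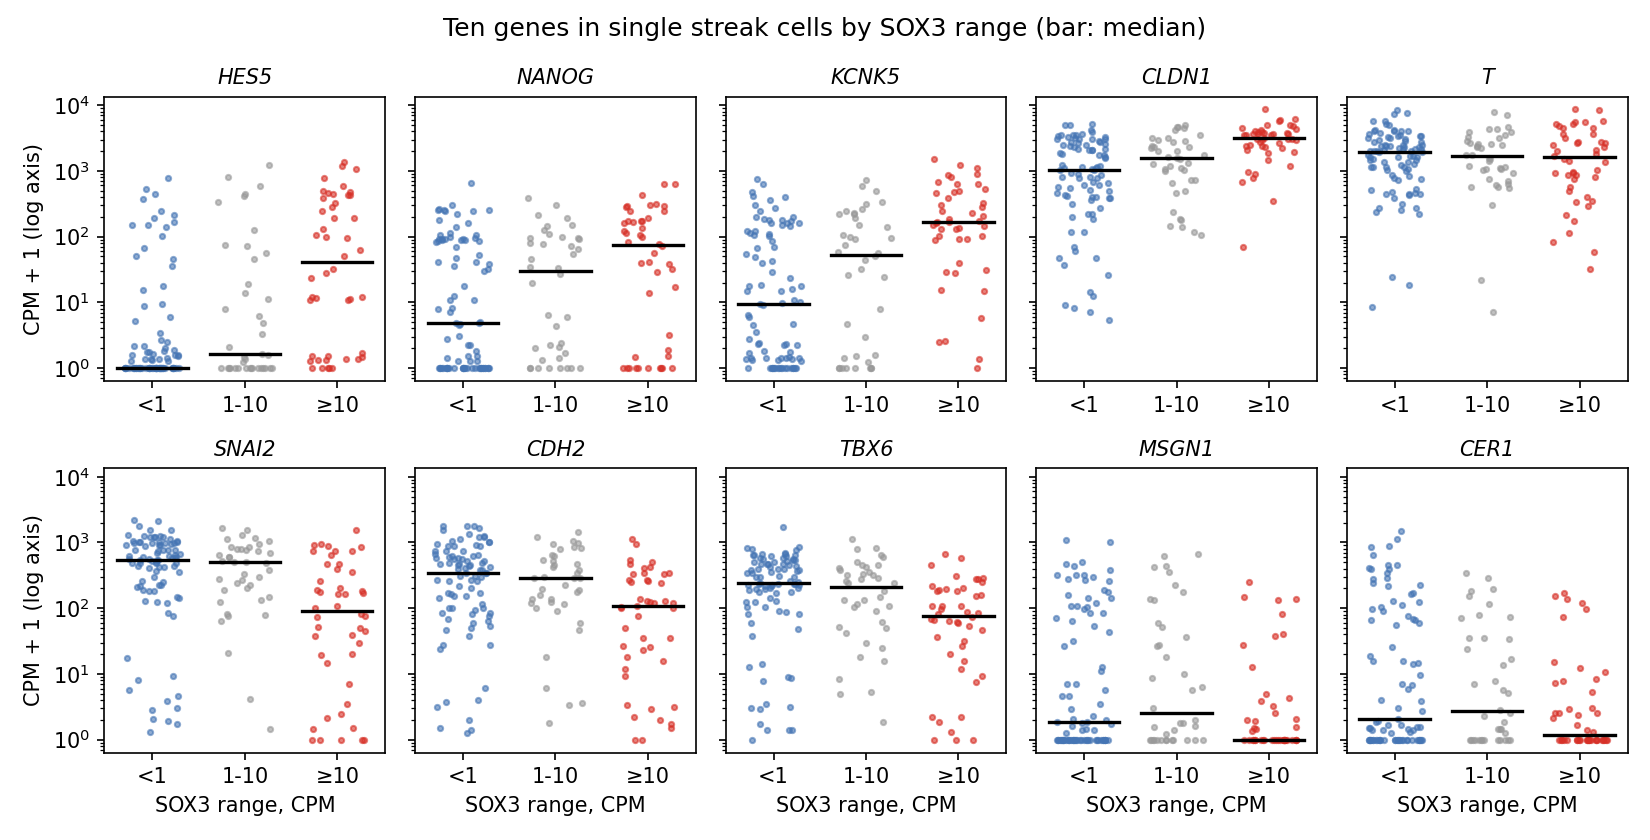
Levels of 10 genes in single streak cells by SOX3 range (under 1, 1 to 10, and 10 CPM or more), in CPM with 1 added on a log axis; each point is 1 cell and bars mark medians. HES5, NANOG, KCNK5 and CLDN1 have higher medians in the SOX3-positive cells and SNAI2, CDH2 and TBX6 lower ones, while T spans the same range in all 3 groups.

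T did not separate the groups. It ran from 31.7 to 8607 CPM in SOX3-positive cells (median 1606) and from 7.58 to 8325 in SOX3-negative cells (median 1959), and was detected in 46 of 46 and 88 of 89 cells. Pooled levels were 2128 (2119 to 2137) and 2129 (2124 to 2135) CPM. The log2 ratio was −0.17 in cPS, 0.92 in cPS1, −0.23 in cPS2 and −0.96 in cPS3, so it lay on both sides of 0. EOMES, another T-box factor of the streak, stood at 186 against 202 CPM. WNT8A, a WNT ligand of the streak, stood at 51.2 against 81.1 CPM and was detected in 24 of 46 against 58 of 89 cells.

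SNAI2, CDH2 and TBX6 were lower in SOX3-positive cells. SNAI2 ran from 0 to 1553 CPM in positive cells (median 89.6) and from 0.324 to 2190 in negative cells (median 547). Its pooled level was 254 (251 to 257) against 631 (627 to 634) CPM, a log2 ratio of −1.31, and single series gave −0.50 to −2.64. CDH2, the neural cadherin that mesoderm cells take up, pooled to 189.8 against 476 CPM (log2 −1.32, with −0.92 to −2.33 in single series). TBX6, a T-box factor of paraxial mesoderm, pooled to 124.4 against 333 CPM (log2 −1.41, with −1.06 to −1.92 in single series). All 3 were nevertheless detected in most cells of both groups: SNAI2 in 35 of 46 against 78 of 89, CDH2 in 36 against 81, and TBX6 in 37 against 77. Of 15 measured genes on the list of epithelial-mesenchymal transition and matrix genes, SNAI2 and CDH2 passed the size rule as lower and CDH11 and COL4A1 as higher. CDH11, a mesenchymal cadherin, was detected in 38 of 46 against 29 of 89 cells, at 191 against 69.6 CPM. COL4A1, a basement membrane collagen, stood at 34.98 against 16.1 CPM, and vimentin (VIM) at 209 against 157.7 without passing a rule.

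A pair of genes that act on hyaluronan, a sugar polymer of the extracellular matrix, were each lower. HAS2, which makes hyaluronan, pooled to 163.1 against 497 CPM (log2 −1.60) and was detected in 25 of 46 against 72 of 89 cells; it was picked out after its values were seen. HAPLN1, which links hyaluronan to proteoglycans, ran from 0 to 329 CPM in positive cells (median 1.63) and from 0 to 1543 in negative cells (median 81.5). It pooled to 43.9 against 208 CPM, a log2 ratio of −2.22 that lay between −1.27 and −3.38 in single series.

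Mesoderm lists leaned lower. Of 10 measured streak mesendoderm genes TBX6 and MSGN1 passed the size rule, all others passed neither rule, and the median log2 ratio was −0.64; in cPS1 that median was 0.23. Of 8 paraxial mesoderm genes the same 2 passed, with a median of −0.96. MSGN1, a regulator of paraxial mesoderm, was detected in 9 of 46 against 33 of 89 cells and pooled to 12.2 against 88.7 CPM. Its log2 ratio was −2.77, with −0.18 in cPS1 and −3.88 to −4.87 in the other series. Among 12 lateral and vascular mesoderm genes, 4 passed the size rule as lower, KDR, ALDH1A2 and GATA5 among them. GATA5, GATA6 and the growth factor receptor PDGFRA passed the detection rule as lower. The median was −0.95. KDR, the receptor for vascular endothelial growth factor, pooled to 12.3 against 76.9 CPM, and ALDH1A2, which makes retinoic acid, to 30.4 against 134.8. GATA6, a factor of heart mesoderm and endoderm, was detected in 18 of 46 against 66 of 89 cells, at 61.3 against 117.7 CPM.

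CER1 and GATA6 were lower among endoderm genes, and CER1 was the only node gene past a rule as lower. Of 9 measured endoderm and hypoblast genes CER1 passed the size rule and CER1 and GATA6 the detection rule, all as lower, with a median log2 ratio of −0.93. In cPS2 that median was 0.10. CER1, a secreted inhibitor of Nodal, BMP and WNT, was detected in 8 of 46 against 36 of 89 cells, at 18.4 against 120.5 CPM. The summed level of the 17 endoderm genes in the table was 0.950 to 6151 CPM per positive cell (median 153.8) and 0 to 9412 per negative cell (median 285), and FOXA1 and SERPINA1 had no count. APOA1, an apolipoprotein of yolk-facing endoderm, had 39.1% of its negative-group count in 1 cell. Of 10 node and anterior streak genes CER1 passed the size rule as lower and GNOT1, a homeobox gene of the node, the detection rule as higher, and the median was −0.48, with 0.22 in cPS. CHRD, a BMP inhibitor of the node, was detected in 11 of 46 and 22 of 89 cells, at 32.8 and 20.5 CPM, with a log2 ratio of 2.43 in cPS and −3.68 in cPS3. Of 5 blood and extraembryonic genes PECAM1, an endothelial adhesion molecule, passed the size rule as higher and KDR as lower. Of these 5 genes, 3 were 2-fold or more lower and 1 was 2-fold or more higher. Their median log2 ratio was −2.44, with 0.37 in cPS2. The summed level of the 15 genes of that list was 0.172 to 567 CPM per positive cell (median 162.4) and 0 to 4043 per negative cell (median 166), and HBE1, HBAD and APOB had no count. Of 6 germ cell genes TFAP2C passed the detection rule. The part of these other cell types in the results was not tested.

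A few genes of the BMP and Nodal pathways were lower. Of 19 measured BMP pathway genes, 4 passed the size rule, all as lower: SMAD1, SMAD5 and SMAD9, which carry BMP signals, and SMAD7, which inhibits signalling of the family. SMAD7 pooled to 55.4 against 173 CPM (log2 −1.62, with −1.12 to −2.08 in single series) and SMAD1 to 40.3 against 120 (log2 −1.55). The median log2 ratio of the whole list was −0.14, and the other 15 measured genes passed neither rule. Among 11 Nodal pathway genes, 3 passed the size rule as lower, CER1 and the ligand GDF3 among them, and none passed a rule as higher. The median was −0.63. GDF3 was detected in 21 of 46 against 65 of 89 cells, at 27.6 against 62.5 CPM.

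The WNT list was split. SFRP2, a secreted WNT-binding protein, was higher at 72.8 against 28.2 CPM (log2 1.34; 34 of 46 against 36 of 89 cells), and NOTUM, a secreted WNT inhibitor, passed the detection rule at 45.3 against 22.7 CPM. The ligand WNT5A and the receptor FZD10 passed the size rule as lower, at 12.1 against 28.6 and 9.45 against 21.7 CPM. The list had a median log2 ratio of −0.50 over 17 measured genes, with 0.31 in cPS1. In the FGF list 1 of 18 measured genes passed, the ligand FGF19 as lower (24.8 against 83.7 CPM), with a median of 0.04. Within cPS1 FGF19 was nearly level, at 62.3 against 66.9 CPM (log2 −0.10). Its share of cells was higher there, at 7 of 11 positive against 6 of 20 negative cells. Notch genes had a median of −0.03 over 17 measured members. Within that list, HES5 passed the detection rule as higher and HEYL, another transcriptional repressor downstream of Notch, the size rule as lower at 17.6 against 58.1 CPM. Those were also the 2 genes of 5 in the HES and HEY family that passed a rule. The ligand DLL1 stood at 66.3 against 110.96 CPM.

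The lists of cell cycle and stress genes held no gene past a rule, but few measured genes of any kind passed. By detection these were 298 higher and 56 lower of 9586. With lists of this size, an absence of such genes is no result about cell cycle or stress. None of 25 S-phase genes, 28 genes of G2 and mitosis and 14 stress genes passed a rule, with median log2 ratios of −0.03, −0.12 and −0.20. The summed S-phase level had a median of 4637 CPM in positive and 4653 in negative cells. Of 17 glucose and glycolysis genes 2 passed the detection rule as higher, and the median log2 ratio was 0.07. These were PFKFB3, an enzyme that sets the rate of glycolysis, and HK1, a hexokinase detected in 44 of 46 against 63 of 89 cells at 176 against 101.4 CPM. Of 10 HOX and CDX genes and their cofactors 1, PBX3, passed the size rule as lower, at 8.77 against 42.9 CPM; 3 of the 10 were 2-fold or more lower, and the median log2 ratio was −0.32, with 0.24 in cPS1 and −1.14 in cPS3.

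The largest higher ratios among named genes past the size rule belonged to genes of several kinds. KCNMA1, a calcium-activated potassium channel, stood at 49.3 (48.02 to 50.7) against 2.49 (2.29 to 2.70) CPM and was detected in 15 of 46 against 6 of 89 cells. Its log2 ratio was 3.85, with 2.80 to 5.37 in single series. CA2, a carbonic anhydrase, ran from 0 to 526.5 CPM in positive cells (median 94.8) and from 0 to 359 in negative cells (median 0.298), and was detected in 32 of 46 against 18 of 89. By difference in share, KCNK5, another potassium channel, was among the first: it was detected in 41 of 46 against 41 of 89 cells and pooled to 323 against 79.2 CPM, with single-series log2 ratios of 1.64 to 2.64. EDNRB, an endothelin receptor chosen by the same rule, was detected in 31 of 46 against 19 of 89 cells. By size, the postsynaptic scaffold SHANK2, the thrombin receptor F2R and the microtubule protein MAP7 were also higher, with log2 ratios of 2.69, 2.51 and 2.45. FAM19A4, a secreted chemokine-like peptide, stood at 28.6 against 2.70 CPM. The secretogranin SCG2, the nitric oxide synthase NOS2, the receptor phosphatase PTPRJ, FAM83F, the glycosyltransferase GALNT12 and KIAA1217 had log2 ratios of 2.33 to 2.70.

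The largest lower ratios included secreted and surface proteins beside MSGN1, CER1 and KDR. C21H1ORF187, which the RefSeq gene table names DRAXIN, an axon guidance protein, was detected in 6 of 46 against 45 of 89 cells at 8.09 against 66.1 CPM (log2 −2.88). A single positive cell held 64.3% of its count in that group, and the ratio was −4.01 without the highest cell of each group. AGRP, a melanocortin receptor antagonist, ran from 0 to 174 CPM in positive cells (median 0) and from 0 to 437 in negative cells (median 19.5), and was detected in 8 of 46 against 51 of 89. The centriole protein CCP110 and the cytokine receptor LIFR had log2 ratios of −2.77 and −2.68. The share of cells with LIFR differed less than its pooled level. It was detected in 33.7% of negative cells, in 23.5% of cells at 10 to under 50 CPM of SOX3 and in 50% of the 12 cells at 50 CPM or more. NDP, a Frizzled ligand, stood at 6.64 against 42.3 CPM and was detected in 3 of 46 against 32 of 89 cells, with 54.2% of the positive count in 1 cell and a log2 ratio of −3.23 without the highest cells. By share of cells, PREX1, an activator of the GTPase Rac, was detected in 30 of 46 against 86 of 89 cells at 190.4 against 502 CPM. The heparan sulphatase SULF1, the adaptor GAB2 and the tetraspanin TSPAN18 were also lower by both rules; for TSPAN18 the log2 ratio moved from −1.55 to −2.34 without the highest cells.

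**Figure D3:**
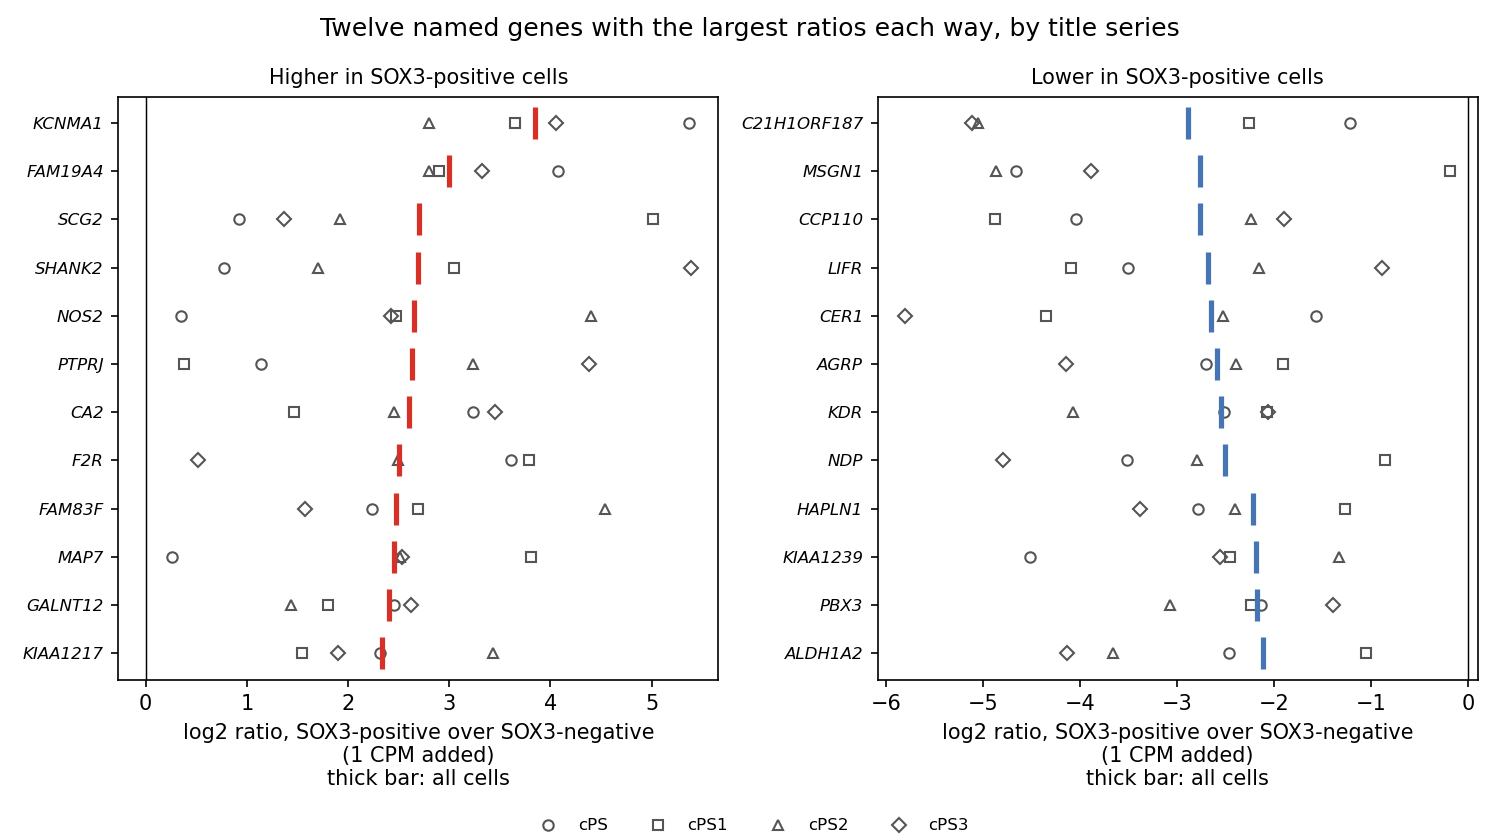
Log2 ratios of SOX3-positive to SOX3-negative cells in each of the 4 title series, with 1 CPM added, for genes past the size rule: the 12 named genes with the largest higher ratios and the 12 with the largest lower ratios; markers stand for series. All 4 markers of each gene lie on the same side of 0, as the rule required, but MSGN1 in cPS1 lies at −0.18.

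Shares of cells were next compared across 4 ranges of SOX3, with the cells between the groups as one of them. The positive cells were divided at 50 CPM into 34 cells with 10 to under 50 and 12 cells with 50 or more. The share of cells with HES5 was 20.2% under 1 CPM of SOX3, 35% between the groups, 64.7% at 10 to under 50 and 75% at 50 or more. CA2 gave 20.2%, 50%, 67.6% and 75% over the same ranges. PREX1 gave 96.6%, 92.5%, 70.6% and 50%, and AGRP 57.3%, 52.5%, 17.6% and 16.7%. These genes had passed the detection rule on the same cells, so a difference between the lowest range and the positive cells was set by that choice. Others that passed did not run in order. EDNRB gave 21.3%, 42.5%, 67.6% and 66.7%, and CDH11 32.6%, 60%, 88.2% and 66.7%. SNAI2 was detected in 87.6%, 95%, 82.4% and 58.3% of cells, and its pooled level was 631, 526, 302 and 111.3 CPM. T gave 2129, 1936, 2311 and 1585 CPM. Genes differed in the cells between the groups: AGRP was detected there in 52.5% of cells against 57.3% of negative cells, and TSPAN18 in 27.5% against 48.3%. CER1 was detected in 37.5% against 40.4%, while its pooled level was 45.4 against 120.5 CPM. Of the CER1 count in negative cells, 17.6% lay in 1 cell. The 12 cells of the top range give wide intervals.

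**Figure D4:**
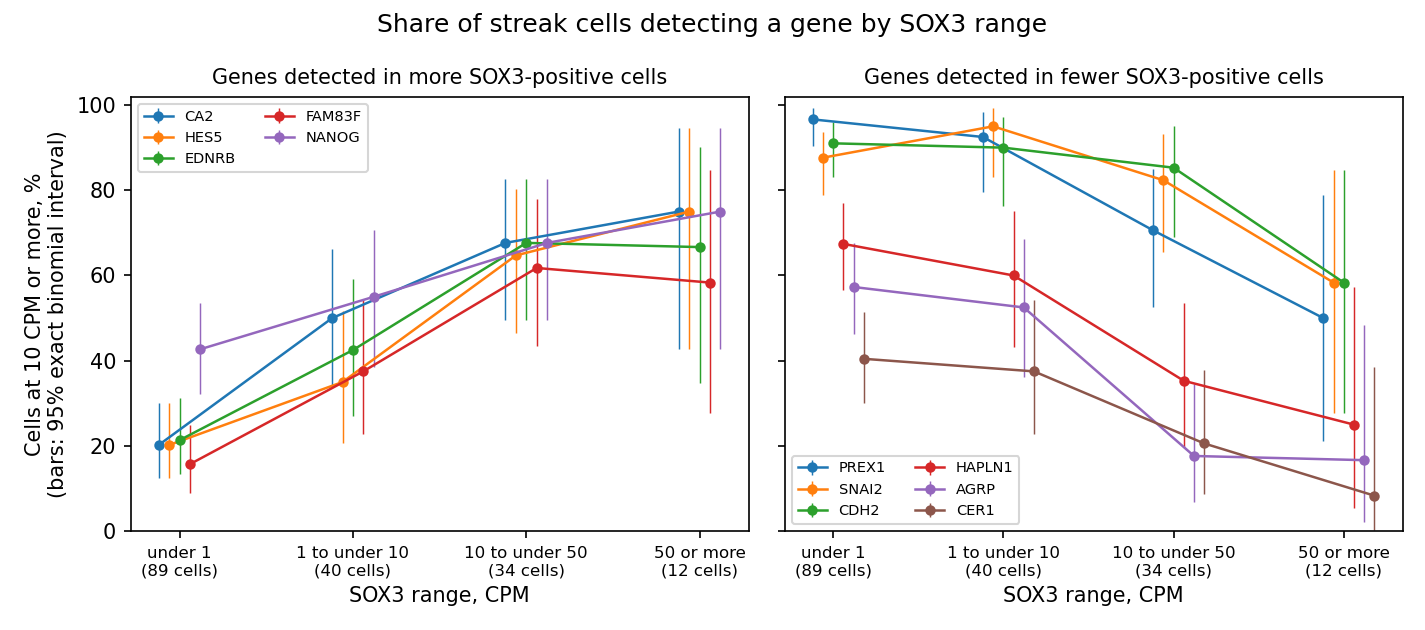
Share of cells with a gene at 10 CPM or more in 4 ranges of SOX3 (89, 40, 34 and 12 cells); bars are exact 95% binomial intervals. Shares of HES5 and CA2 run upward and those of PREX1 and AGRP downward across the ranges, but these genes were chosen by their shares in the same cells. EDNRB, FAM83F and SNAI2 do not run in order.

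Markers of both kinds were found in the same cells. Singly, HES5 was detected in 31 of 46 positive against 18 of 89 negative cells, and SNAI2 in 35 of 46 against 78 of 89. A joint share depends on such single shares, and a link between the genes beyond them was not tested. HES5 and SNAI2 were both detected in 22 of 46 positive cells (47.8%, exact interval 32.9% to 63.1%) and in 14 of 89 negative cells (15.7%, 8.88% to 24.98%). HES5 and NANOG were both detected in 24 of 46 (52.2%, 36.9% to 67.1%) against 10 of 89 (11.2%, 5.52% to 19.7%). T and SNAI2 were both detected in 35 of 46 against 77 of 89 cells. Since T was detected in 46 and 88 cells, this pair repeats the share of SNAI2. SNAI2, CDH2 and TBX6 were all detected in 25 of 46 positive cells (54.3%, 39.0% to 69.1%), in 67 of 89 negative cells (75.3%, 65% to 83.8%) and in 33 of the 40 between.

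The surrounding-region cells, which took no part in choosing these genes, were divided by the same limits into 8 SOX3-positive and 16 SOX3-negative cells. Of the genes higher by size in the streak, 80% were also higher there, where 47.7% of all measured genes were, with a median log2 ratio of 1.46 against 1.53 in the streak. Of the lower genes, 128 (77.6%) were also lower, where 52% of all measured genes were, with a median of −1.23 against −1.37. By the detection rule 208 of 298 higher genes (69.8%, against 40.4% of all measured genes) and 46 of 56 lower genes (82.1%, against 37.1%) kept their direction. Genes with equal shares in both groups counted in neither direction. Such ties lower these percentages, and how often they fell among genes past the rule and among all measured genes was not compared. The cPS series shares library identifier runs with the surrounding-region cells.

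Some genes differed between the tissues. T, level between the streak groups, stood at 161.6 CPM in SOX3-positive against 1672 in SOX3-negative surrounding cells, a log2 ratio of −3.36. SNAI2 stood at 4.45 against 595 CPM there (1 of 8 against 15 of 16 cells; log2 −6.77, against −1.31 in the streak), and CDH2 at 40.3 against 437 (log2 −3.41). For CDH2, 1 of the 8 positive cells held 92.3% of the count, and without the highest cell of each group the ratio was −6.35. CA2 had a log2 ratio of 6.63 there, against 2.61 in the streak. KCNK5 had 4.88 there, with 90% of the negative count in 1 cell and 7.05 without the highest cells, against 2.01 in the streak. ENS-1 was close in both tissues, with 1.58 and 1.54. CDH11, higher in positive streak cells, stood at 192 against 308 CPM in the surrounding region. OTX2 was detected in 5 of 8 against 0 of 16 surrounding cells, at 56.7 against 0.610 CPM. These differences between tissues were not tested.

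**Figure D5:**
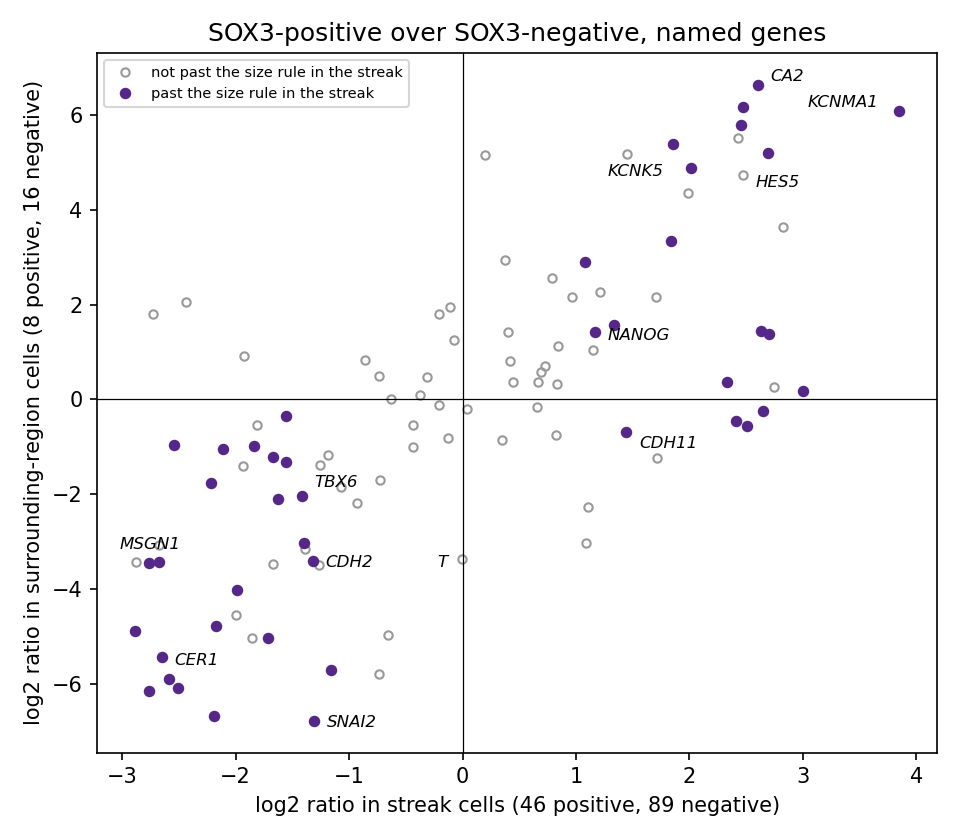
Log2 ratio of SOX3-positive to SOX3-negative cells in the streak (46 against 89 cells, x axis) and in the surrounding region (8 against 16 cells, y axis), with 1 CPM added. Points are the named genes other than those added after their values were seen. SNAI2 and T have much lower ratios in the surrounding region than in the streak, and CDH11 has opposite signs in the 2 tissues.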

How the data were processed

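Single-cell cDNA libraries were made with Nextera XT, per the labels' protocols. The authors deposited expected counts for each gene in each cell, made with RSEM 1.2.3 after CASAVA 1.8.2 and Bowtie 0.12.9 (0.12.8 for 1 cell) on galGal4, per the submitters' processing notes; 64.2% of the streak values above 0 were whole (within 1e-06). The labels name no molecular identifiers, so counts are not taken as independent molecules and intervals cover counting error only. The 2 tables share 20581 complete genes, over which CPM was computed; 1 incomplete row was dropped, and 640 genes of the surrounding-region table alone stayed out of the comparison.

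Cells were grouped by SOX3, which was left out of the results. Sums were rounded for Poisson intervals. With 1 sample a group, no test was run. The 2 rules of size and detection are given with their counts. The text names the 12 genes with the largest ratio and the 8 with the largest difference in share in each direction (identifiers without a gene name left out), up to 3 genes from each of 24 lists, and a panel; genes said to be picked out afterwards, and others that passed a rule within a list, were added after their values were seen. Not every gene that passed a rule within a list is reported here. The members, lists and rules were chosen with earlier results of these data known. No 2 streak cells were alike beyond a correlation of 0.857 in log2 CPM. Scripts ran in Python 3.11.15 and R 4.3.3 and were tested on simulated data; edgeR 4.0.16 gave TMM factors and DESeq2 1.42.0 size factors as alternatives.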

Additional observations from a re-analysis of the deposited data

How the results depend on the processing

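No paired analysis was possible because the numbers in the titles name single cells, no label ties cells to an embryo, and no test was run. The shares of genes past the size rule (0.753% higher, 0.802% lower) and the detection rule (1.45% higher, 0.272% lower) stayed within 1.5 times under TMM and DESeq2 size factors, thinning to 1000000 counts, the mean of single cells, a pseudocount of 0.1, leaving out the highest cell, a detection limit of 5 CPM, a minimum of 5 CPM, and SOX3-negative cells with no count. The genes themselves changed more than these shares. By detection, a limit of 5 CPM kept 194 of 298 higher and 35 of 56 lower genes. Taking SOX3-negative cells with no count kept 208 of the 298. Positive cells at 20 CPM or more gave 0.413% lower by detection, and at 50 CPM or more 2.36% lower by size and 2.69% higher and 1.38% lower by detection. Counting every cell under 10 CPM as negative gave 0.957% higher by detection. A pseudocount of 10 gave 0.462% lower by size, and a minimum of 50 CPM gave 0.442% higher and 0.457% lower. Asking for 4-fold and 30 points gave 0.155% and 0.0826% by size, 0.355% and 0.0680% by detection. Detection at 50 CPM gave 0.5005% and 0.457% by size and 0.865% higher by detection. Without cPS, 2.25% were higher by detection. Without cPS1, 1.22% were lower by size and 0.792% by detection. Without cPS2, 1.15% were higher and 1.48% lower by size, and 0.593% lower by detection. Without cPS3, 1.15% were higher by size. Cells with HINTW at 700 CPM or more (10 against 23) gave 2.53% lower by size and 1.05% by detection, and cells under 100 CPM (30 against 61) 0.471% lower by detection. Of the genes higher by size in all cells (0.753% of 20580), most did not pass again in the cells of high HINTW, where 28 did. In those cells 39 named genes and 8 of 24 list medians moved by more than 1 SD between title series. Most of the genes higher by size also did not pass with positive cells at 50 CPM or more, where 68 did. At that limit 29 named genes moved by more than 1 SD. Of 67 named genes past a rule, 1 changed sign: DACH1, at −0.10 with positive cells at 50 CPM or more. Both rules had already asked for the same direction in all 4 series, so leaving out a series could hardly change a sign. The size rule had also asked for a ratio that held without the highest cell of each group. Settings that changed only a limit for passing a rule left the ratio as it was. Under such settings the count of sign changes is no measure of stability. The cause of the shifts in shares and ratios was not tested, beyond the fewer series or stricter limits that some settings impose.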

Other observations

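The surrounding-region table holds 17 genes of the lists that were not analysed in the streak. Some are given here for its 8 SOX3-positive and 16 SOX3-negative cells. No rule was applied to them, and no share over all genes of that table was computed beside them. HOXD4, HOXD8 and NKX6-2 had no count in either group. FGFR2, a receptor for fibroblast growth factors, stood at 179 CPM of all genes of that table (173 to 185) against 18.05 (16.7 to 19.4), in 7 of 8 against 9 of 16 cells. FRZB, a secreted WNT inhibitor, stood at 112 against 12.9 CPM, in 6 of 8 against 5 of 16 cells. PDK1, a pyruvate dehydrogenase kinase, stood at 51.6 against 16.6 CPM. The matrix protein FN1 stood at 57.4 against 113.2 CPM and the proliferation marker MKI67 at 254 against 385. BMPR2, a BMP receptor, was lower at 2.55 against 16.5 CPM and detected in 0 of 8 against 3 of 16 cells. FGF8, a ligand of the streak, had no count in the 8 positive cells. It stood at 1.52 CPM in the 16 negative cells, of which 1 reached 10 CPM.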
